A study of Rattus norvegicus with 31 samples.

Results

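The regions described here are 3022 unnamed, single-exon, intergenic genes among the 46063 genes that the authors assembled from left ventricle RNA of rats. A gene was taken when no line of the deposited heart annotation gave it a gene name, when each of its transcripts had 1 exon, when its span overlapped no named gene on either strand, and when it lay on an autosome. Of 24431 genes without a name, 4742 had 1 exon throughout, 3185 of these overlapped no named gene, and 3022 were autosomal. The rule itself used no expression value. The models were assembled from left ventricle RNA, though, so a region could enter only if it had reads in some of that RNA. The effect of this on the counts below was not tested. Libraries represented a set of recombinant inbred strains, HXB and BXH, and the inbred strains that they descend from. These progenitors are BN-Lx/Cub (BN-Lx), a congenic Brown Norway rat, and SHR/OlaIpcv (SHR), a spontaneously hypertensive one. All animals were naive males that received no treatment, and no age was given in the labels. Sequencing covered rRNA-depleted total RNA of 4 BN-Lx animals, 4 SHR animals, 12 HXB strains and 9 BXH strains, the strains with 1 library each. Every recombinant inbred strain is a fixed mosaic of both progenitor genomes, so a region controlled by 1 locus can be high in some strains and low in others.

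A transcript assembler joins overlapping reads into transcript models. A model with a single exon has no splice junction to fix its strand and ends, and may stand for a non-coding RNA, for a piece of a longer transcript, for the extended end of a neighbouring gene, for RNA started from the opposite strand of a promoter, or for a transposable element. Such models are usually of low abundance, and libraries of total RNA also hold transcripts without a poly(A) tail, which poly(A) selection loses.

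All 3022 regions had 1 transcript. They were short, with a median of 547 bp (201 to 30227 bp), and 1380 of them (45.7%) were under 500 bp. Plus-strand models numbered 1574 and minus-strand models 1448. Only 21 carried an Ensembl gene identifier without a name. Every autosome held some, from 59 on chromosome 12 to 356 on chromosome 1. The distance to the nearest named gene had a median of 3311.5 bp, and 460 regions lay over 100 kb from any named gene.

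The nearest named gene was used to place each region in 1 of 5 classes, with 5 kb as the limit. The largest class, 1376 regions, lay farther away (distal). A further 896 lay downstream of the named gene on the same strand, where unannotated 3′ ends and read-through RNA map. Divergent regions numbered 484: these lay upstream of the gene and ran the other way, as RNA from bidirectional promoters does, and 202 of them began within 250 bp of the gene. The remaining 149 were convergent (downstream, opposite strand) and 117 lay upstream on the same strand.

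The regions were compared with other assemblies of the authors. In the assembly that the authors merged over tissues, 2875 regions had the same span and 2 had several exons, and 1278 overlapped a named gene there, 922 of them on the same strand and 356 on the opposite strand only. This share differed by class, with 630 of 896 downstream regions, 221 of 484 divergent regions and 263 of 1376 distal regions overlapping a named gene of the merged assembly. In an older heart assembly on the same build, 2394 regions had a same-strand match over at least 50% of their length, and 1261 of these matches had several exons.

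The divergent regions start next to promoters, and the promoter sequences of their neighbours are shown for that reason; no test was made of how they differ from others. RefSeq promoter windows (GRCr8, 250 bases before to 50 after the start of the gene) were matched by symbol to the 381 genes with a divergent region within 1 kb, which gave 322 windows. Their median GC content was 65.7%, against 51.7% over all 33469 windows of the table and 60.0% over the 11076 windows of named genes of the assembly, and they held a median of 27.5 CG dinucleotides, against 7 and 19. The letters GGGCGG, a GC box, occurred on either strand in 72.0% of them, in 33.1% of all windows and in 57.0% of windows of named genes. The letters TATAAA, on either strand, occurred in 6.52%, 14.2% and 7.76%, and CCAAT, on either strand, in 37.6%, 37.5% and 36.2%. The windows of 3 genes with a divergent region called between the progenitors are shown, with every CG in capitals: Tada2b, a subunit of histone acetyltransferase complexes (chr14:78503905-78504204, plus strand), Ppm1l, a protein phosphatase (chr2:155876355-155876654, plus strand), and Mettl21a, a protein lysine methyltransferase (chr9:73481290-73481589, minus strand). Positions of the regions themselves are on the build of the deposited annotation and cannot be placed in these windows.
Tada2b: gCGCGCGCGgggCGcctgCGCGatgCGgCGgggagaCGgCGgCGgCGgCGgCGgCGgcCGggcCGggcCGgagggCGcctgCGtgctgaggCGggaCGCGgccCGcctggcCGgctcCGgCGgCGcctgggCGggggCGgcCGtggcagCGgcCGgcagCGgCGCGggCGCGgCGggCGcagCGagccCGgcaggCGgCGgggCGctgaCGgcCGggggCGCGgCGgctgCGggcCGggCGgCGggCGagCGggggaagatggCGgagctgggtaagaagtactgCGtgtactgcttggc
Ppm1l: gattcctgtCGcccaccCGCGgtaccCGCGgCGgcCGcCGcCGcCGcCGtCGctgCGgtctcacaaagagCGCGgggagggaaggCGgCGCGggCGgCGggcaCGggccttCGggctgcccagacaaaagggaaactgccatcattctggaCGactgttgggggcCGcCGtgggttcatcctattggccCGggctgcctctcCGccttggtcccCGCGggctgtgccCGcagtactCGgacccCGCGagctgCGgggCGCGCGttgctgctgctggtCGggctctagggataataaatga
Mettl21a: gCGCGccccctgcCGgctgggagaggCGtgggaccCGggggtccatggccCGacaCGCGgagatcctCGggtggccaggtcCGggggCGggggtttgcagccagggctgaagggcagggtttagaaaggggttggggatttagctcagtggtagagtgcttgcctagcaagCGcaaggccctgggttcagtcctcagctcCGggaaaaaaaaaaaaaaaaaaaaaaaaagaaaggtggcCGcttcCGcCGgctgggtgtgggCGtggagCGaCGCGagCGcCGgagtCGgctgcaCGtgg
They held 59, 38 and 24 CG dinucleotides, each had a GC box, and none had TATAAA.

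The labelled tissue was checked on named genes. The 7 of 9 cardiomyocyte markers with a gene of that name ranged from 16.66 to 20.88 (log2) over the 29 libraries, whereas the atrial list reached 13.83 at most and the lymphocyte list 5.10. Other cell types were measured too: the erythroid list reached 18.20, by Hbb, a globin gene (16.37 to 18.20), the endothelial list 14.87, the fibroblast list 14.34, pericytes and smooth muscle 11.97, macrophages 11.71, mesothelium 9.77 and Schwann cells 9.24, and no adipocyte marker had a gene of that name. Their part in the results was not tested. The spike-in rows (70) were left out. Library medians over named genes ran from 7.21 to 7.39 and over unnamed intergenic genes with several exons from 2.79 to 3.55, with BXH8 lowest in both. The values are log2 levels without counts, so the depth behind them is not known and intervals for counting error were left out. Whether littermates were used is not in the labels, and the p-values rest on the variation among the animals sampled, whatever its source.

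The regions were weakly expressed. Library medians over the 3022 regions ranged from 2.34 (BXH9) to 2.62 (HXB20). They averaged 2.46 ± 0.01 in BN-Lx and 2.53 ± 0.05 in SHR (SD over 4 libraries each). In the 8 progenitor libraries 686 regions had a mean over 4, 53 a mean over 8, and 1174 a mean under 2. On a scale of log2 level minus log2 length in kb, the median was 3.14 (quartiles 2.34 and 4.08), against 4.44 (quartiles 2.72 and 7.06) for 592 named genes with 1 exon. Their measurement was also noisier than that of named genes. The library of SHR replicate 4 and its later repeat differed by a median of 0.46 over the regions and 0.34 over named genes, and the median SD among the 4 SHR libraries was 0.43 against 0.20.

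A few regions were abundant. The 5 highest levels per kb, over the 8 progenitor libraries, were in PRN7.71G0103967 (13.74, 208 bp, chromosome 5, 1920 bp from Fam43b), PRN7.71G0051015 (12.48, 271 bp, chromosome 2, 80369 bp from Ugt8), PRN7.71G0047985 (11.92, 396 bp, chromosome 2, 5314 bp from the histone gene Hist2h3c2), PRN7.71G0155137 (11.56, 338 bp, chromosome 9, 290960 bp from Spp2) and PRN7.71G0147190 (11.37, 3040 bp, chromosome 9, 7824 bp from Plin3). In the assembly merged over tissues the first lay opposite Camk2n1, the region on chromosome 9 at 290960 bp from Spp2 overlapped no named gene, and the others overlapped named genes on their own strand. The first of these was also variable, at 12.12, 10.69, 13.07 and 11.93 in BN-Lx and 10.65, 11.97, 10.62 and 10.75 in SHR. Its groups overlapped and limma made no call (adjusted p = 0.145), but without BN-Lx replicate 2 the region was called lower in SHR, by 1.38 (adjusted p = 0.0175). PRN7.71G0051015 was steady within strains, at 10.80, 10.79, 10.71 and 10.84 in BN-Lx and 10.48, 10.52, 10.34 and 10.28 in SHR. The groups did not overlap, and the level was lower in SHR by 0.38 (SE 0.08, adjusted p = 0.00644, limma), a call that was lost under 1 of 15 alternative settings.

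SHR was compared with BN-Lx to find the transcripts whose level differs between the progenitors of the panel. Of the 3022 regions 333 (11%) were called by limma at an adjusted p under 0.05, against 14.3% of all 46063 genes tested. Of these 212 were higher in SHR (7.02% of the regions, 7.38% of all genes) and 121 were lower (4.0%, 6.95% of all genes). At large differences the directions were less even. A log2 difference of at least 2 was called in 78 regions (2.58%, 1.41% of all genes), of which 68 were higher in SHR (2.25%, 0.829% of all genes) and 10 were lower (0.331%, 0.582% of all genes). Named genes had 102 higher and 123 lower at that size, and unnamed intergenic genes with several exons 114 and 78. With each progenitor library left out in turn, the large calls ranged from 63 to 70 higher and from 9 to 12 lower. The number of all lower calls moved more, from 121 to 70 without BN-Lx replicate 1, 74 without BN-Lx replicate 3 and 71 without SHR replicate 4.

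Calls were unevenly spread over the position classes. Distal regions were called at 18.2% (178 higher and 73 lower in SHR, of 1376), whereas regions within 5 kb of a named gene were called at 4.98% (34 higher and 48 lower, of 1646). Downstream regions on the same strand had 14 higher and 32 lower, divergent regions 13 and 9, convergent regions 4 and 4, and upstream regions on the same strand 3 and 3. With each library left out in turn, higher calls among distal regions ranged from 138 to 165 and lower calls from 42 (without SHR replicate 4) to 58, with 44 without BN-Lx replicate 1 and 45 without BN-Lx replicate 3. Lower calls among downstream regions ranged from 17 (without SHR replicate 2) to 26, with 19 without BN-Lx replicate 1, 20 without BN-Lx replicate 4 and 19 without SHR replicate 4. Over all regions within 5 kb, higher calls ranged from 21 to 32 and lower calls from 26 to 44. They were 22 higher and 26 lower without BN-Lx replicate 1, 22 and 29 without BN-Lx replicate 3, 21 and 30 without SHR replicate 2, 32 and 31 without SHR replicate 3, and 21 and 29 without SHR replicate 4. The small classes moved too. Divergent regions had 8 higher and 2 lower without BN-Lx replicate 1, 9 and 4 without BN-Lx replicate 3, 11 and 4 without SHR replicate 3, and 9 and 5 without SHR replicate 4. Higher calls among downstream regions were 8 without BN-Lx replicate 3, 9 without SHR replicate 1, 8 without SHR replicate 2 and 7 without SHR replicate 4. Among distal regions the share called also moved with length, from 12.9% under 300 bp and 13.5% from 300 to under 500 bp to 31.9% from 1000 to under 5000 bp and 43.3% of the 60 regions of 5000 bp or more. The distal share from 500 to under 1000 bp was 16.1%. In the same 5 bins, from short to long, regions within 5 kb were called at 4.03%, 3.99%, 2.86%, 7.37% and 12.5%. Level moved with length: the median level was 2.24 in the shortest and 5.85 in the longest of the distal bins. Within 5 kb it was 1.19 and 5.94. Within bands of mean level the regions were called at 5.28% (under 2), 11.8% (2 to 4), 16.7% (4 to 6) and 27.8% (6 and over), and named genes at 4.71%, 8.77%, 15% and 22.1%. The median level was 2.58 in distal regions and 2.32 in those within 5 kb, and the part of level and length in the difference between classes was not tested.

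**Figure D1:**
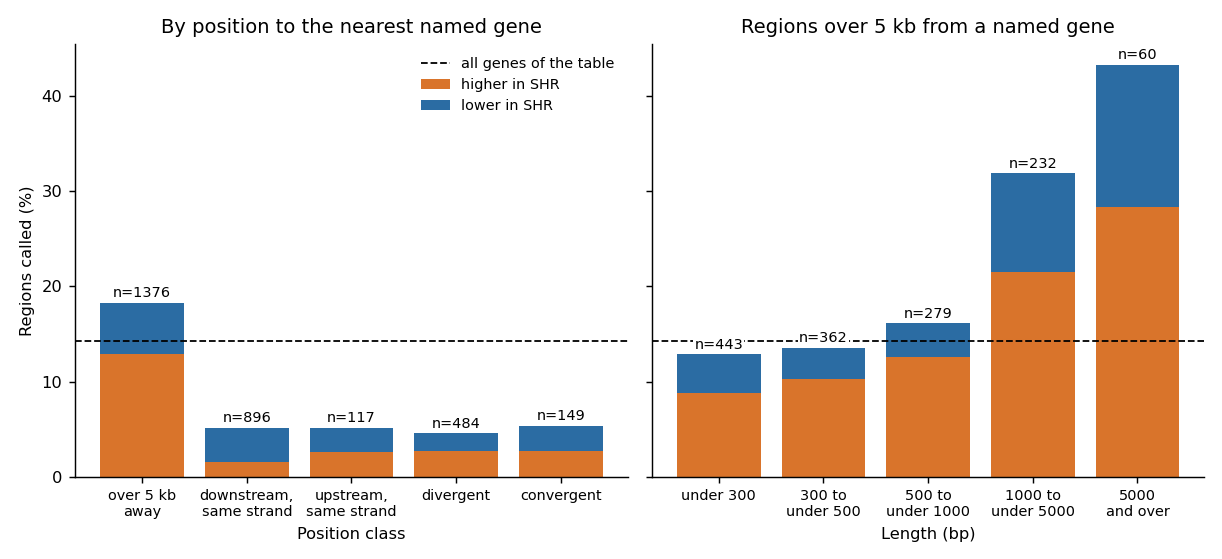
Share of regions called between SHR and BN-Lx (limma, adjusted p under 0.05), on the vertical axis in percent, by position class (left) and, for distal regions, by length in bp (right). Orange and blue stack the calls higher and lower in SHR, n is the number of regions, and the dashed line is the 14.3% of all 46063 genes; among the classes on the left only the distal one stands above it, at 18.2%.

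The group ranges of the 4 BN-Lx and 4 SHR libraries did not overlap in 320 of the 333 called regions (10.6% of all 3022, against 13.4% of all genes). Without a test, ranges were apart in 502 regions (16.6%), against 20.6% of all genes. The 8 largest differences in each direction among called regions without overlap are given next, from the same 8 libraries.

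PRN7.71G0003566, a 253 bp region on chromosome 1 (33867512 to 33867764, plus strand) at 67528 bp from Tent4a, stood at 3.20, 3.21, 3.23 and 3.24 in BN-Lx and at 7.44, 7.04, 7.50 and 6.99 in SHR. The 4 SHR libraries were all far above the 4 BN-Lx libraries, which were nearly equal. The BN-Lx SD was 0.02, against a median of 0.44 over the regions. Without counts it is not known whether these BN-Lx values rest on few or no reads, so the size of the difference is uncertain. The difference was 4.02 (SE 0.19, adjusted p = 4.94e-08). A later library of SHR replicate 4, not in the test, stood at 7.25.

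A pair of neighbouring regions on chromosome 9 followed. PRN7.71G0153072 (66000568 to 66001042, plus strand, 475 bp) lay 603 bp upstream of Mettl21a on the opposite strand, and PRN7.71G0153076 (66002745 to 66003080, plus strand, 336 bp) lay 2780 bp upstream. In the assembly merged over tissues both overlapped Creb1, the gene of a cAMP-responsive transcription factor, on the same strand. The first stood at 4.63, 4.44, 3.81 and 3.83 in BN-Lx and 8.18, 7.98, 8.16 and 7.91 in SHR, a difference of 3.88 (SE 0.21, adjusted p = 1.09e-07). The other stood at 4.37, 3.76, 3.62 and 3.80 in BN-Lx and 7.73, 7.66, 7.70 and 7.67 in SHR, a difference of 3.81 (SE 0.19, adjusted p = 6.04e-08). In both regions every SHR library lay over 3 log2 units above every BN-Lx library. Mettl21a itself differed by -0.12 (SE 0.11, adjusted p = 0.484), with no call.

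The other 5 of the 8 largest were PRN7.71G0026598 (4.01, SE 0.21, chromosome 1, 38358 bp from Hectd2), PRN7.71G0117949 (3.93, SE 0.18, chromosome 6, 49971 bp from Tcl1a), PRN7.71G0112091 (3.63, SE 0.29, chromosome 6, 6570 bp long), PRN7.71G0223505 (3.62, SE 0.15, chromosome 17, 31860 bp from Crem) and PRN7.71G0176867 (3.60, SE 0.20, chromosome 12, 6765 bp from LOC304239). Their adjusted p-values by limma were 1.09e-07, 3.59e-08, 3.93e-06, 1.11e-08 and 1.76e-07. LOC304239 was also higher in SHR, by 2.33 (SE 0.29, adjusted p = 0.000217). Of the nearest named genes of 2 others, Hectd2 was lower in SHR by 0.53 (SE 0.09, adjusted p = 0.00147), and Crem, a cAMP-responsive modulator of transcription, differed by -0.08 (adjusted p = 0.63).

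The region with the most negative difference was PRN7.71G0037583 on chromosome 2 (83029947 to 83033429, plus strand, 3483 bp), 85348 bp from the nearest named gene, LOC120101135. It stood at 6.29, 6.28, 6.42 and 6.27 in BN-Lx and at 1.81, 2.23, 2.33 and 2.17 in SHR. Every BN-Lx library was far above every SHR library, and the difference was -4.18 (SE 0.23, adjusted p = 1.67e-07). The next 7 differed by -2.68 to -2.20, so that this region stood apart from the other lower ones. PRN7.71G0104011, an 850 bp region on chromosome 5 (151039790 to 151040639, minus strand), lay 699 bp downstream of Pla2g5, a secreted phospholipase A2, on the same strand. It stood at 5.68, 5.58, 5.74 and 5.84 in BN-Lx and 3.66, 2.67, 3.53 and 3.39 in SHR, and its difference was -2.40 (SE 0.26, adjusted p = 5.53e-05). Pla2g5 moved the other way, higher in SHR by 0.34 (SE 0.07, adjusted p = 0.00708). Across the 21 strains the region and Pla2g5 had a Spearman's rho of -0.37. In the merged assembly the region overlapped Pla2g5 on the same strand.

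**Figure D2:**
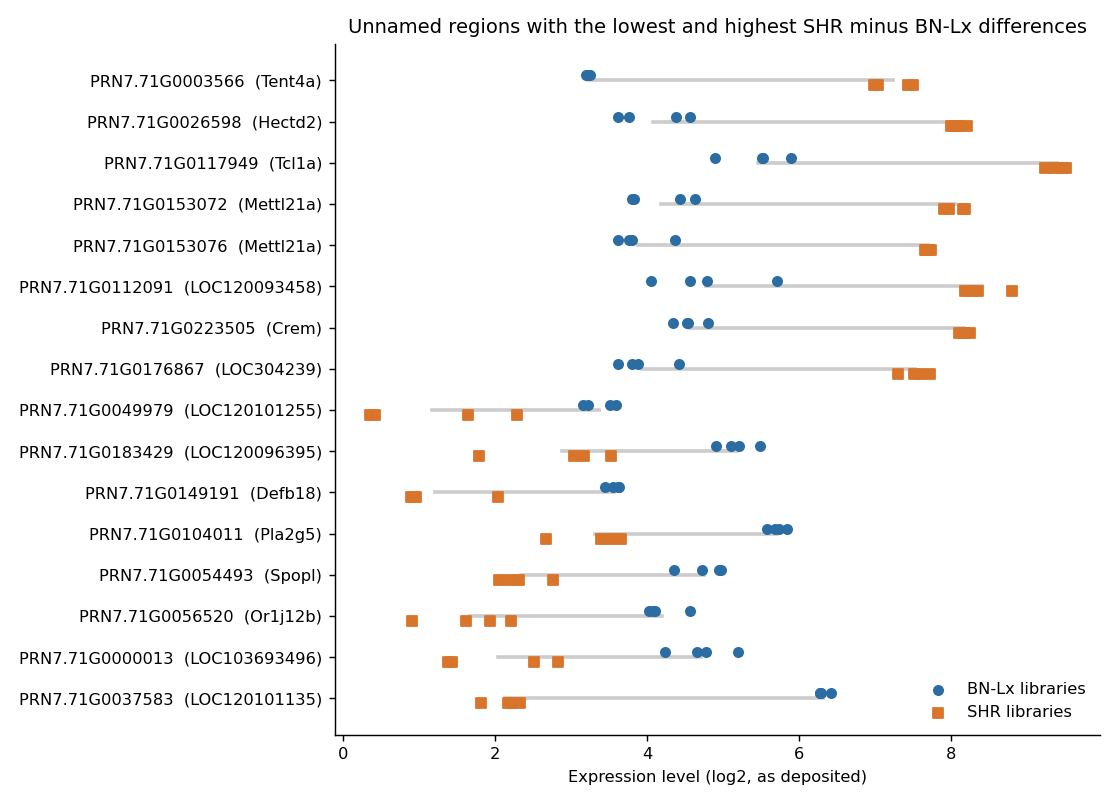
Log2 levels of the 16 regions with the lowest and highest differences, with the nearest named gene in parentheses. Each blue circle is 1 of 4 BN-Lx libraries, each orange square 1 of 4 SHR libraries, and the grey line joins the group means; no region has overlapping groups, and PRN7.71G0037583 and PRN7.71G0003566 differ by -4.18 and 4.02.

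Other regions near named genes are given by class. The smallest p among downstream regions besides that of PRN7.71G0104011 was in PRN7.71G0059711, a 29926 bp region on chromosome 3 that began 666 bp beyond Mtx2, a mitochondrial outer membrane protein gene. It was higher in SHR (9.29, 9.35, 9.57 and 9.18) than in BN-Lx (8.04, 8.30, 8.27 and 8.36), by 1.10 (SE 0.11, adjusted p = 3.06e-05), whereas Mtx2 differed by -0.02 (SE 0.09, adjusted p = 0.9). In the assembly merged over tissues PRN7.71G0059711 overlapped Mtx2 on the same strand. The upstream regions PRN7.71G0217093 (1.13, SE 0.18, adjusted p = 0.00125, limma) and PRN7.71G0115690 (2.42, SE 0.42, adjusted p = 0.00223, limma) were higher in SHR. PRN7.71G0217093 overlapped its nearest named gene, AABR07026565.1, on its own strand in the merged assembly. Of the convergent regions, PRN7.71G0096368 was lower in SHR (-1.85, SE 0.32, adjusted p = 0.00231, limma). It overlapped Tmem268 on its own strand in the merged assembly. The convergent region PRN7.71G0221876 was higher in SHR (1.02, SE 0.20, adjusted p = 0.00465, limma). PRN7.71G0221876 carries an Ensembl gene identifier without a name and lies 833 bp from Hist2h4, and its call was lost under 1 of 15 alternatives.

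The divergent regions of Tada2b and Ppm1l, whose promoter windows are printed above, were chosen after their values were seen. PRN7.71G0197298 (chromosome 14, 74276568 to 74279072, minus strand), 213 bp from Tada2b, stood at 4.58, 4.66, 4.21 and 4.58 in BN-Lx and 6.28, 6.05, 6.03 and 5.98 in SHR. It was higher in SHR by 1.57 (SE 0.19, adjusted p = 0.000127), while Tada2b differed by 0.23 (SE 0.08, adjusted p = 0.0597), with no call. PRN7.71G0044752 (chromosome 2, 153563555 to 153565936, minus strand), 54 bp from Ppm1l, stood at 7.90, 7.65, 7.89 and 7.79 in BN-Lx and 7.26, 7.12, 7.24 and 7.25 in SHR. It was lower in SHR by 0.59 (SE 0.11, adjusted p = 0.00368), and Ppm1l was lower too, by 0.41 (SE 0.06, adjusted p = 0.00102). The groups did not overlap in either region.

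Over all pairs in the table, regions and their nearest named gene were weakly related. Spearman's rho across the 21 strains, after centring within batch, had a median of 0.05 for 880 downstream pairs, 0.14 for 472 divergent pairs, 0.21 for 103 upstream pairs, 0.05 for 134 convergent pairs and 0.05 for 907 distal pairs. Only 30 of the 2496 pairs reached 0.8. These values are descriptions: the pairs share libraries and the alleles of 2 founders, and pairs on 1 chromosome share haplotypes. Among 76 regions called between the progenitors within 5 kb of a measured named gene, that gene was called in 25, in the same direction in 17 and in the opposite direction in 8. Of all the neighbours within 5 kb, 19.5% were called. PRN7.71G0153811, 885 bp downstream of Igfbp5, an insulin-like growth factor binding protein gene, was among the most alike (rho 0.92; chosen after its value was seen). It was higher in SHR by 0.49 (SE 0.08, adjusted p = 0.00153) beside a difference of 0.58 (SE 0.09, adjusted p = 0.00142) in Igfbp5.

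Across the 21 recombinant inbred strains 607 regions (20.1%) had more than 1 mode of expression by mclust, 470 with 2 and 137 with 3, against 21.2% of all genes. Among regions called between the progenitors 104 of 333 had more than 1 mode, and among the others 503 of 2689. The largest gain of fit over 1 mode was in PRN7.71G0153072 beside Mettl21a, whose strains ran from 3.93 through a median of 6.81 to 7.70. It was on the SHR side of the midpoint between the progenitors in 14 strains and on the BN-Lx side in 7. PRN7.71G0153076, PRN7.71G0179853 and PRN7.71G0104011 were also among the 5 largest gains.

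Some regions on different chromosomes followed the same order of strains. Among the 78 regions called with a difference of at least 2, the 2833 pairs on different chromosomes had a median rho of 0.06 across the 21 strains (quartiles -0.12 and 0.22), but 25 pairs reached 0.8 and none reached -0.8. These pairs joined 20 regions into 5 sets. The sets were found after the values were seen, all points come from the same 21 libraries, and the values are descriptions.

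The first set had 6 regions on 4 chromosomes, with rho of 0.73 to 0.93 over its 15 pairs. Its 4 longest members were nearly alike in length: PRN7.71G0112091 on chromosome 6 (67016122 to 67022691, 6570 bp), PRN7.71G0137589 on chromosome 8 (36973835 to 36980292, 6458 bp), PRN7.71G0142949 on chromosome 8 (86845053 to 86851498, 6446 bp) and PRN7.71G0177847 on chromosome 12 (11722329 to 11728774, 6446 bp). All 6 were higher in SHR, by 3.63, 2.80, 3.09 and 3.36 in these 4, by 2.54 in PRN7.71G0179853 on chromosome 12 and by 2.15 in PRN7.71G0087711 on chromosome 4. PRN7.71G0137589, the most precise of them, stood at 6.90, 6.41, 6.30 and 6.35 in BN-Lx and 9.43, 9.37, 9.13 and 9.22 in SHR (SE 0.14, adjusted p = 8.54e-08). In 10 strains all 6 regions lay on the SHR side of the midpoint, in 8 strains all 6 lay on the BN-Lx side, and 3 strains were mixed. Whether these regions share their sequence was not tested, and reads shared by near-identical copies would leave the level of each copy uncertain.

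The second set had 5 regions on chromosomes 2, 3, 12 and 15 with rho of 0.89 to 0.94, and differences of 2.43 to 3.27 in favour of SHR. It was on the SHR side in all its regions in 9 strains, on the BN-Lx side in 8 and mixed in 4. The third set joined PRN7.71G0003566, PRN7.71G0026598, PRN7.71G0117949 and PRN7.71G0176867, on chromosomes 1, 6 and 12, with rho of 0.80 to 0.94. In it 12 strains were on the SHR side throughout, 6 on the BN-Lx side and 3 mixed. The fourth set joined both regions beside Mettl21a on chromosome 9 with PRN7.71G0086426 on chromosome 4 (162006088 to 162006870, minus strand; difference 2.94, SE 0.30, adjusted p = 4.11e-05), with rho of 0.87 to 0.95, and 20 of the 21 strains were on 1 side throughout (13 SHR, 7 BN-Lx). The last paired PRN7.71G0223505 on chromosome 17 with PRN7.71G0108658 on chromosome 6 (rho 0.89), with 9 strains on the SHR side, 11 on the BN-Lx side and 1 mixed.

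**Figure D3:**
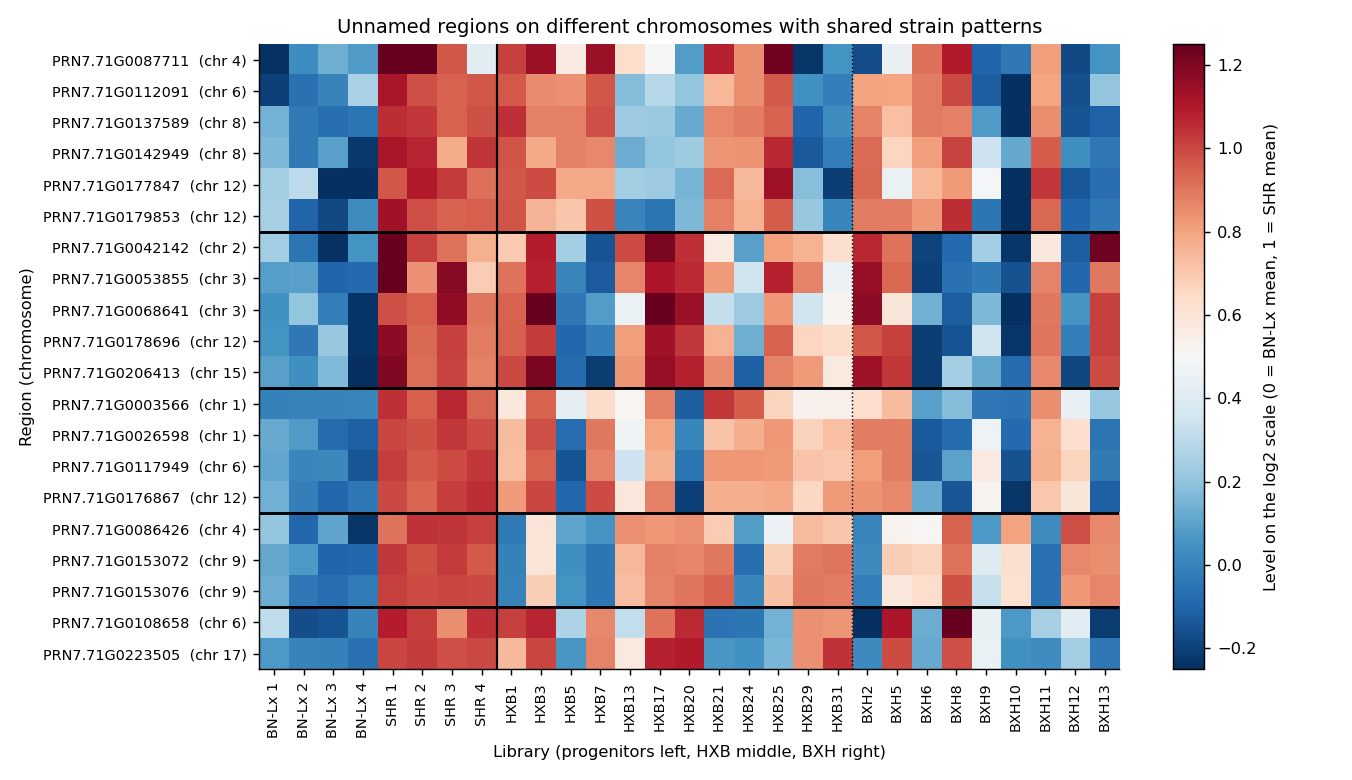
Levels of the 20 regions of the 5 sets (rows, with their chromosome, separated by black lines) in 8 progenitor libraries and 21 strains (columns), on the log2 scale with 0 as the BN-Lx mean and 1 as the SHR mean of that region. Within a set most strains are red or blue together although the regions lie on different chromosomes; in the first set 10 strains are on the SHR side in all 6 regions and 8 on the BN-Lx side.

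The genes most alike in strain order were also located. For each of the 78 regions the 20 genes with the highest absolute rho were taken, leaving out those within 100 kb, and a window of 10 Mb was sought that held at least 5 of them. Such a window was found for 10 regions. It lay at the region's own position for 1 of them and elsewhere in the genome for 9. Own position meant that the region started in the window or up to 10 Mb to either side of it. Of 225 named genes called with a difference of at least 2, the window was at the gene's own position for 20 and elsewhere for 4, and of 192 unnamed genes with several exons for 13 and 7. These counts are descriptions, with no test of the difference.

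Most genes in 1 window, 9, were found for PRN7.71G0044885 on chromosome 2 (154677070 to 154678696, plus strand). It stood at 4.31, 3.09, 3.92 and 3.35 in BN-Lx and 6.39, 6.26, 6.41 and 6.31 in SHR, a difference of 2.67 (SE 0.26, adjusted p = 2.72e-05). These 9 of its 20 most alike genes began between 10280654 and 18083041 on chromosome 3, Endog, Rexo4 and Zbtb43 among them. The regions beside Mettl21a had 5 of 20 in a window on chromosome 3 that held Dzank1 and Snx5. PRN7.71G0223505 and PRN7.71G0108658, which paired with each other, both had a window that began at 49335966 on chromosome 19. The region with a window at its own position was PRN7.71G0206157 on chromosome 15 (53868176 to 53873329, minus strand, 5154 bp), 26134 bp from Akap11. It stood at 3.64, 3.43, 3.05 and 3.63 in BN-Lx and 6.49, 6.62, 6.89 and 6.90 in SHR, a difference of 3.29 (SE 0.21, adjusted p = 6.3e-07), and 6 of its 20 most alike genes began between 45941841 and 51175043.

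HXB and BXH strains, which come from reciprocal crosses, were compared with batch as a term. Of the 3022 regions 526 (17.4%) were called, against 27.9% of all genes: 283 were higher in HXB (9.36%, 15.1% of all genes) and 243 lower (8.04%, 12.8% of all genes). This split depended on the scaling. After quantile normalization 517 regions were called (17.1%, 24.6% of all genes), of which 120 were higher in HXB (3.97%, 10.7% of all genes) and 397 lower (13.1%, 13.9% of all genes), and the median difference over all genes moved from 0.11 to 0.02. Over the 3022 regions the median difference moved from 0.08 to -0.05. Library medians over the regions moved with the families: they ran from 2.42 to 2.62 in HXB and from 2.34 to 2.49 in BXH, and their part in these calls was not tested. Within batch 3 alone 672 regions were called. Within batch 2 alone, with 3 strains of each family, limma called 0 regions and 6 of all genes (189 regions had an unadjusted p under 0.05), although 502 of the 526 had the same direction there.

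The classes split differently. Divergent regions were mostly lower in HXB, with 75 lower and 9 higher (123 and 4 after quantile normalization). Upstream regions on the same strand had 17 and 6 (31 and 1). The share called was 17.4% of divergent and 19.7% of upstream regions, against 27.9% of all genes. In the same order, named genes had 4882 lower and 3154 higher (4652 and 2992), and all genes 5912 and 6959 (6393 and 4932). Unnamed intergenic genes with several exons had 241 and 1200 (432 and 561). Downstream regions were mostly higher in HXB as deposited, with 93 higher and 31 lower, and mostly lower after quantile normalization, with 38 and 68. With each of the 21 libraries left out in turn, lower calls among divergent regions ranged from 49 (without BXH12) to 96 and higher calls from 5 to 14. Lower calls among downstream regions, 31 in all, were 20 without BXH10, 17 without BXH12 and 16 without BXH9. Library medians over divergent regions ran from 2.12 (HXB13) to 2.53 (HXB25) in HXB, median 2.22, and from 2.26 (BXH6) to 2.73 (BXH12) in BXH, median 2.56. The families overlapped, with the higher levels mostly in BXH. Among the divergent regions with a measured neighbour 82 were called, and in 45 of these the named gene was called too (38.3% of all named genes were called), in the same direction in 35 and in the opposite direction in 10.

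**Figure D4:**
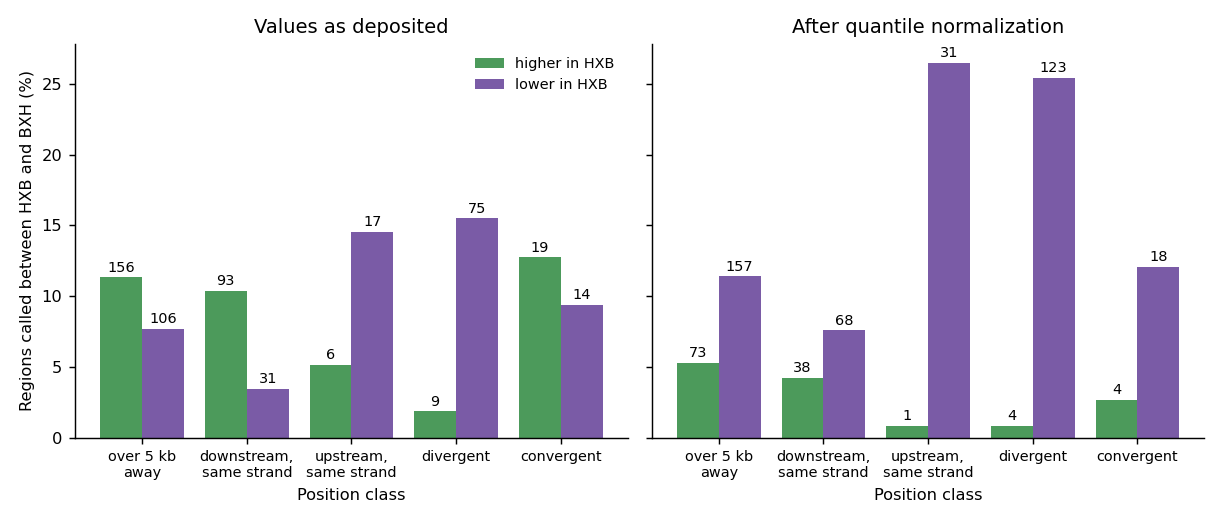
Percent of regions called between HXB and BXH (limma with batch, adjusted p under 0.05) in each position class, with counts above the bars, for values as deposited (left) and after quantile normalization (right). Green bars are higher and purple bars lower in HXB; divergent regions are mostly lower in HXB on both sides (75 against 9, and 123 against 4), whereas downstream regions turn from 93 higher and 31 lower to 38 and 68.

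The 5 smallest p-values had directions that both scalings and every left-out library kept. PRN7.71G0103296 (chromosome 5, 146322754 to 146323689, plus strand), 1405 bp upstream of Cd52, a leukocyte surface antigen gene, and on the other strand, ran from 8.73 through 8.95 to 9.65 (lowest, median, highest) in HXB and from 9.39 through 9.59 to 10.06 in BXH. The families overlapped little, and the level was lower in HXB by 0.66 (SE 0.10, adjusted p = 0.000665). In the assembly merged over tissues this region overlapped Crybg2, Sh3bgrl3 and Ubxn11 on its own strand. PRN7.71G0224340 (chromosome 17, 64548763 to 64549767, plus strand), 305 bp upstream of Klf6, a zinc finger transcription factor gene, ran from 3.48 through 4.20 to 4.87 in HXB and from 4.72 through 5.17 to 5.54 in BXH, lower in HXB by 0.90 (SE 0.16, adjusted p = 0.00094), with little overlap. Its rho with Klf6 was -0.56. PRN7.71G0105751, 5625 bp from Mib2 (-0.61, SE 0.10), and PRN7.71G0059731 on chromosome 3 (-0.64, SE 0.11) were lower in HXB as well. PRN7.71G0106032, a 9946 bp region on chromosome 6, 5243 bp from Mtm1, a phosphoinositide phosphatase gene, was the only 1 of the 5 higher in HXB (1.02, SE 0.17, adjusted p = 0.000858). Its HXB strains ran from 7.13 to 8.15 and its BXH strains from 5.16 to 7.0, without overlap.

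Regions beside histone genes formed a further group, taken after their values were seen. Replication-dependent histone genes lie in clusters and their mRNAs end in a stem-loop in place of a poly(A) tail. The nearest named gene was a histone gene for 24 regions, 19 of them on chromosome 17. They were abundant for this kind of region, with a median level of 6.27, and 15 had a mean over 4. Among the 15, the strain BXH12 was highest in 11, and HXB13 or HXB17 was lowest in 10. Their median per strain ran from 7.86 in HXB17 and 7.90 in HXB13 to 9.46 in BXH13 and 9.76 in BXH12.

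Of the 24 regions 14 were called between the families, 10 of them lower in HXB, where 27.9% of all genes were called and 12.8% were lower. After quantile normalization the counts were 12 and 10, and the shares of all genes 24.6% and 13.9%. Without BXH12 the calls fell to 7, with 4 lower in HXB, and without BXH9 to 9, with 6 lower. The highest of them, PRN7.71G0047985 (chromosome 2, 183831601 to 183831996, minus strand), ran from 9.63 through 10.47 to 11.30 in HXB and from 10.14 through 11.26 to 12 in BXH. The families overlapped widely, and the level was lower in HXB by 0.76 (SE 0.22, adjusted p = 0.0151). Its rho with Hist2h3c2 was 0.96 across the strains. In the assembly merged over tissues it overlapped Fcgr1a and Hist1h4b, at least 1 of them on its own strand. Of the 15 regions 6 had a rho of at least 0.9 with their nearest histone gene. Others had a negative rho, down to -0.71 in PRN7.71G0221950, and the median over all 24 regions was 0.42. Between the progenitors 7 of the 24 were called, against 14.3% of all genes, and 6 of them were higher in SHR (7.38% of all genes), PRN7.71G0221876 among them. In that region SHR replicate 4 stood at 9.04 in batch 1 and at 7.86 in its later library, below the 8.10, 8.23 and 7.95 of 3 BN-Lx libraries. Histone genes are a family of near-identical copies, so the share of reads given to each region is uncertain.

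**Figure D5:**
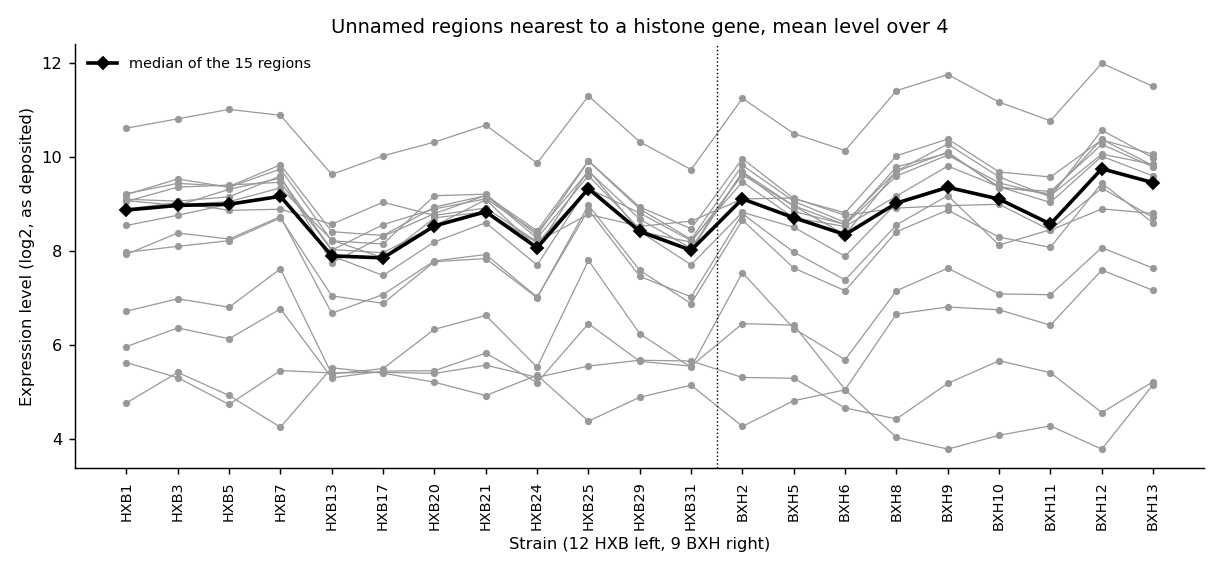
Log2 levels of the 15 regions nearest to a histone gene with a mean over 4 (grey, 1 line per region) and their median (black diamonds) in the 12 HXB strains (left of the dotted line) and the 9 BXH strains (right); lines only join the points of 1 region. BXH12 is the highest strain in 11 of the 15 regions, and the median runs from 7.86 in HXB17 to 9.76 in BXH12.

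The later library of SHR replicate 4 was not in the test, but it repeats an animal whose batch 1 library was. That earlier library entered the calls and the SHR mean, so the later library cannot check other SHR animals. The later library lay on the SHR side of the midpoint between the progenitor means in 257 of the 333 called regions. Among those with a difference of at least 2 it did so in 75 of 78. Levels of the same regions in the older assembly were compared across the 21 strains. Where both models had 1 exon the median rho was 0.81 for 654 distal regions and 0.76 for 462 regions within 5 kb. Where the older model had several exons it was 0.34 for 314 distal regions and 0.13 for 941 regions within 5 kb. Both tables come from the same libraries. For the 25 regions called with a difference of at least 2 and 1 exon in both assemblies, the median rho was 0.74 and the lowest 0.42. For the 15 such regions whose older model had several exons, the median was 0.54 and the lowest -0.36. The others of the 78 are in neither count.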

How the data were processed

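Left ventricle RNA of the rats was sequenced in 3 batches, with the progenitors in batch 1 and the 21 strains in batches 2 and 3. The submitters' processing notes name StringTie 1.3.5, RSEM 1.3.1 and DESeq2 (no version), beside HISAT2 2.1.0, cutadapt 1.9.1 and Bowtie2 2.3.4.3, on the build rn7, with no role or order. The deposited values are log2 expression levels per assembled gene, made by the authors without counts, so depth is unknown. Of 30 libraries 29 entered comparisons, and the later library of SHR replicate 4 was kept aside. The labels list later libraries of this animal in both batch 2 and batch 3, but the values hold only 1. Which of them it is was not clear. Regions were chosen among the assembled models by annotation, with no rule on expression, on the build of the deposited files. Spike-in rows were removed.

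SHR and BN-Lx were compared with limma 3.58.1 in R 4.3.3 (intensity trend, two-sided, 8 libraries), and HXB and BXH likewise with batch as a term (21 strains). P-values were adjusted by the Benjamini-Hochberg method over all 46063 genes, with a threshold of 0.05 and no filter on low values. Modes were counted with mclust 6.1.1 (1 to 3 components, by BIC) on values centred within batch. Correlations are Spearman's rho across strains and carry no p. The fits were also run on independent simulated normal values, and the outcome is not given here. Levels per kb are the log2 level minus log2 of the length in kb.

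The regions and lists were chosen with earlier results of these data known. Regions named are the 8 highest and 8 lowest called differences without overlap, the 2 smallest p per position class, the 5 highest per kb, the 5 smallest family p and the 5 largest gains from modes; others are stated to have been chosen after their values were seen. Of the regions with the largest gains from modes, 1 is not reported here. The sequences printed come from RefSeq on GRCr8. Alternatives changed the normalization, the trend, a filter at a mean of 4, the libraries, the replicate block, the batch term and the distance limit.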

Additional observations from a re-analysis of the deposited data

Results flagged for a closer look

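In the 51 regions named or tabulated, the 4 BN-Lx, the 4 SHR and the 9 BXH libraries, 153 groups in all, were examined for 1 library far from the others, and 10 were found. The 12 HXB strains were not examined. About 1 in 20 groups would pass by chance if each held values from 1 normal distribution. The BXH strains carry alleles of both progenitors, so that rate need not hold for them. In BN-Lx, replicate 3 stood at 6.42 in PRN7.71G0037583 above 6.27 to 6.29 in the others. Replicate 1 stood at 4.56 in PRN7.71G0056520 above 4.03 to 4.11.

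In SHR, replicate 3 stood at 2.04 in PRN7.71G0149191 above 0.89 to 0.96, a region that remained lower than in every BN-Lx library. Replicate 2 stood at 11.97 in PRN7.71G0103967 above 10.62 to 10.75. In the divergent region of Ppm1l, PRN7.71G0044752, replicate 2 stood at 7.12 below 7.24 to 7.26. Replicate 1 stood at 9.33 in PRN7.71G0103296 above 9.10 to 9.13, and replicate 4 at 4.93 in PRN7.71G0059731 below 5.47 to 5.50.

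Among BXH strains, BXH13 stood at 4.04 in PRN7.71G0217093, below 5.34 to 6.29 in the other 8. BXH8 stood at 5.16 in PRN7.71G0106032 below 6.51 to 7.0. BXH5 stood at 7.38 in PRN7.71G0206157 above 2.70 to 4.43, so that it was the only BXH strain near the SHR level of that region.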

How the results depend on the processing

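The 333 progenitor calls ranged from 230 to 290 with each library left out and were 152 of 686 regions with a mean over 4; lower calls fell from 121 to 70 without BN-Lx replicate 1. Replicate numbers did not pair the animals (correlations of deviations 0.0302, -0.0393, -0.0377 and -0.00578), and the replicate block gave 252 calls (174 higher, 78 lower). The 526 family calls ranged from 362 (without BXH12) to 686 (without HXB5), were 247 with a mean over 4, and were 0 within batch 2 alone, which holds 6 strains. Lower family calls in total ran from 159 without BXH12, over 1.5 times fewer than 243. Distal regions alone gave 317 with more than 1 mode. The median level stayed at 2.46 in BN-Lx and ran from 2.51 to 2.56 in SHR with a library left out, 2.47 in BN-Lx after quantile normalization, and 5.16 and 5.25 with a mean over 4. A limit of 1 kb gave 65 convergent, 492 downstream and 56 upstream regions. No region called in a comparison changed sign in it among those named, but quantile normalization turned the split of family calls from 283 higher and 243 lower to 120 and 397, of downstream regions from 93 and 31 to 38 and 68, and the median family difference over the regions from 0.08 to -0.05. Of 43 named regions called between the progenitors 39 stayed called under every alternative, and PRN7.71G0221876, PRN7.71G0051015, PRN7.71G0155137 and PRN7.71G0217010 lost the call under at least 1; PRN7.71G0103967 (adjusted p = 0.0175 without BN-Lx replicate 2), PRN7.71G0047985 (0.00175 without SHR replicate 3) and PRN7.71G0059731 (0.0317 with all 29 libraries, and also without BN-Lx replicate 2) gained one. The cause was not tested. The overlap with the RefSeq table was not run, since its build differs.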

Other observations

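Some short regions followed their neighbour across the 21 strains without a call between the progenitors; they were picked for a high rho, after their values were seen. PRN7.71G0139872 (chromosome 8, 58370778 to 58371226, 449 bp) lay 241 bp downstream of Sema7a, a membrane semaphorin gene, on the same strand and had a rho of 0.99 with it. PRN7.71G0187808 (chromosome 13, 73528211 to 73528460, 250 bp) lay 285 bp downstream of Prdx6, a peroxiredoxin gene, with a rho of 0.94. Between the progenitors these regions differed by 0.35 (SE 0.16, adjusted p = 0.16, limma) and by 0.02 (SE 0.11, adjusted p = 0.915). PRN7.71G0022606 (chromosome 1, 201340567 to 201341058, 492 bp) began 336 bp from Gstp1, a glutathione S-transferase gene, on the opposite strand, and had a rho of 0.87.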
